A study of Caenorhabditis elegans with 2 samples.

Results

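The constitutive chaperones described here were 7 genes, hsp-90, hsp-1, hsp-110, hsp-3, hsp-4, hsp-6 and hsp-60, taken by name from 19973 nuclear protein-coding genes of Caenorhabditis elegans. Their occupancy by RNA polymerase II was read from lists of chromatin immunoprecipitation sequencing (ChIP-seq) peaks for AMA-1, the large subunit of that enzyme. Whole L4 larvae of the N2 strain, mixed in sex and with no treatment named in the labels, gave 1 group of 2 biological replicates. There was no second condition, so nothing here compares treatments or stages, and all cell types of the animal are mixed. A peak is a stretch where immunoprecipitated fragments pile up over a control, its summit is the base of highest pile-up, and its signal is the height score given by the authors' caller. Each replicate's list and a list from the pooled alignments held 30000 peaks. A set built from the irreproducible discovery rate (IDR), a measure of how well replicates rank the same peaks, held 2082. Those were exactly the 2082 strongest pooled peaks, and a summit in the set need not be strong in each replicate. The pooled list was deposited as peaks and background for input to the IDR, so its low-ranked entries can be background. Low ranks in the equally long replicate lists are to be read with the same caution. Summits were sought in each gene and 500 bp either side of it, and called start or end when within 500 bp of the outermost annotated start or end, and body otherwise.

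Molecular chaperones bind unfolded or incomplete proteins and help them reach their folded state. HSP90 acts late on client proteins such as kinases and receptors, HSP70 proteins bind exposed stretches in cycles driven by ATP, and chaperonins enclose whole proteins in a chamber. These families exist in parallel in the cytosol, the endoplasmic reticulum (ER) and the mitochondrion, and most are transcribed in unstressed animals and further induced by stress in their own compartment. Heat shock factor binds inverted repeats of a short unit, the heat shock element, and in mammals XBP1 and its relatives bind an element with the core TGACGTG upstream of ER chaperone genes.

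The 250 bp upstream of the outermost annotated start are shown for 4 genes that held such an element, because they hold the elements counted in the next paragraph. Capitals mark the heat shock element forms GAANNTTC and TTCNNGAA and the core TGACGTG, read on either strand. Each run reads from 5′ to 3′ along the gene's own strand, in the RefSeq copy of build WBcel235, the same assembly as ce11. The window of hsp-90 is V:14684668-14684917, plus strand, and lies inside the neighbouring gene C47E8.4. That of hsp-1 is IV:17278709-17278958, plus strand. That of hsp-110 is III:8446910-8447159, minus strand. That of hsp-4 is II:7352646-7352895, minus strand.
hsp-90: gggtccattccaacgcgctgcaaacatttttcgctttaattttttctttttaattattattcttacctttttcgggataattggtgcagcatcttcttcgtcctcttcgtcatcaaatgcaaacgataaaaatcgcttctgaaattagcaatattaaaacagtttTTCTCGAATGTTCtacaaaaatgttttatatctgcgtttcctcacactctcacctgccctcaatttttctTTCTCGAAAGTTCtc
hsp-1: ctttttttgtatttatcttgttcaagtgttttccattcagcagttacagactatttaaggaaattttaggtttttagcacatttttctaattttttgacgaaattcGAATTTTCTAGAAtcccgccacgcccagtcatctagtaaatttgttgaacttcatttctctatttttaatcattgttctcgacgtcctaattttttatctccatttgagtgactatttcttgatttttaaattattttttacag
hsp-110: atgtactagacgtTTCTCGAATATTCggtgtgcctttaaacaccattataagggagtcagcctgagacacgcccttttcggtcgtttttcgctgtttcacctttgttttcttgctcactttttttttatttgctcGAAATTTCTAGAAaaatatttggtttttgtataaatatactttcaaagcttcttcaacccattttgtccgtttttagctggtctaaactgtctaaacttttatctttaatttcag
hsp-4: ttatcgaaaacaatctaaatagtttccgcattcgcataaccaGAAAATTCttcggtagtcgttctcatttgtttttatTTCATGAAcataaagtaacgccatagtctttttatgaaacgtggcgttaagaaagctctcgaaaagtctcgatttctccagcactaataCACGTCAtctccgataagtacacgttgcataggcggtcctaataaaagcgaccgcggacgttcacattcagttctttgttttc

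In 3 of the 6 genes whose upstream windows were examined both forms of the heat shock element shared a unit, giving 3 alternating units in a row. hsp-90 carried such a run at -85 to -73 and again at -15 to -3, counted from its outermost start. hsp-110 carried runs at -237 to -225 and at -115 to -103, and hsp-1 carried a single run at -144 to -132. Runs of this kind were present upstream of 1.63% of the 19973 genes, and at 2 places upstream of 0.175%. In hsp-4 the 2 forms stood apart, at -208 and -172. Taken singly, GAANNTTC occurred upstream of 15.7% and TTCNNGAA upstream of 15% of all genes, and each upstream of 4 of the 6. TGACGTG occurred in 1 of the 6, the ER HSP70 gene hsp-4, at -83 to -77 on the other strand, against 2.39% of all genes. None of these 3 motifs was found in the windows of hsp-6 and hsp-60 or upstream of the inner start of hsp-90. The TATA box letters TATAAA, read on either strand, occurred upstream of 3 of the 6 and of 35.2% of all genes. Of those 3, only hsp-110 had them on its own strand, at -86 to -81. They also lay on the strand of hsp-90 at -53 to -48 from its inner start. The last bases before the annotated start were AG in hsp-1, hsp-6, hsp-60 and hsp-110, as in 27.6% of all genes. Many worm messenger RNAs receive a spliced leader at an acceptor that ends in AG, so an annotated start need not be where transcription begins, and distances from the start are to be read with that limit.

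AMA-1 was found in the IDR set at 5 of the 7 genes, namely hsp-90, hsp-1, hsp-110, hsp-6 and hsp-60, with 15 summits in all, while hsp-3 and hsp-4 had none. An IDR summit in the gene or 500 bp either side was present at 10.3% of all protein-coding genes, and at 11.3% of those between 2372 and 6062 bp long, the range of the 7. hsp-90 had 6 summits, hsp-1 and hsp-6 had 3 each, hsp-110 had 2 and hsp-60 had 1. At least 2 summits were counted at 4 of the 7 genes against 2.50% of all genes, and at least 3 were counted at 3 of the 7 against 0.576%. An IDR summit lay within 500 bp of the start in 4 of the 7 (5.57% of all genes) and within 500 bp of the end in 5 of the 7 (6.0%). Both ends were marked in 4 of the 7, against 1.93% of all genes. By place, the 15 summits fell into 4 at starts, 6 in bodies and 5 at ends, counted from the outermost ends. Among the body summits, those of hsp-90 at 859 and 1550 bp lay within 500 bp of its inner annotated start. The genes were proposed with earlier results of these data in view, so the counts are a description, and no test was made.

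**Figure D1:**
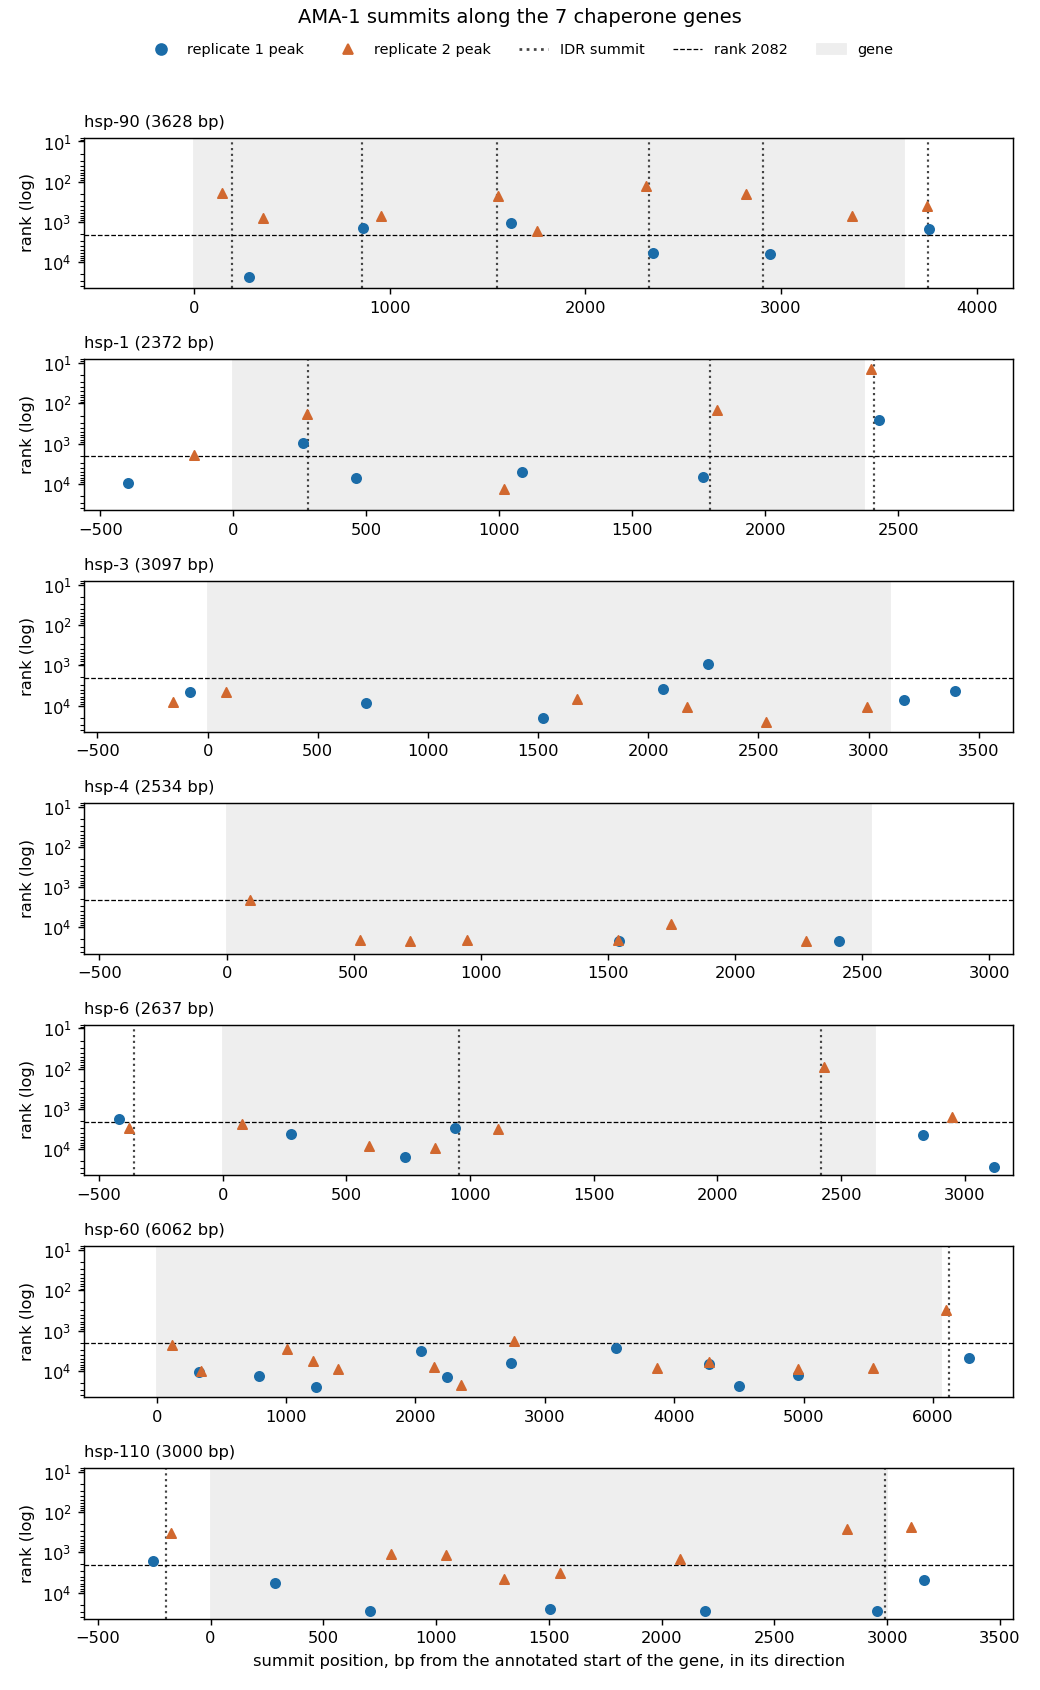
AMA-1 summits along the 7 genes. The x axis is the distance in bp from the annotated start in the direction of the gene, the y axis is the rank of the peak by signal within its replicate on a log scale with the strongest at the top, and dotted vertical lines are IDR summits. Replicate 2 (triangles) lies above replicate 1 (circles) along most of hsp-90, and hsp-3 and hsp-4 have no dotted line.

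hsp-90 encodes the cytosolic HSP90 and lies at V:14684918-14688545 on the plus strand, 3628 bp long, with 2 annotated transcripts. Its second transcript starts at position 14686160. The 6 IDR summits ran through the whole locus, at 194, 859, 1550, 2327 and 2909 bp from the outermost start and at 127 bp past the end. They were spaced 665, 691, 777, 582 and 845 bp apart, and IDR peaks covered 42.8% of the gene. Most of these peaks had the same width of 344 bp, so the coverage follows in part from their number. Of all protein-coding genes 13 had 6 or more IDR summits (0.0651%), and only hsp-90 and mak-1, a kinase gene of 3180 bp with 8, were no longer than hsp-90.

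The strongest of the 6 was the one at 1550 bp, in a coding exon 308 bp past the inner start, with a signal of 95.6 and rank 323 in the IDR set. It ranked 1046 in replicate 1 and 226 in replicate 2. The 101 bp around it are V:14686418-14686518, plus strand, with the summit base in capitals.
hsp-90 coding summit: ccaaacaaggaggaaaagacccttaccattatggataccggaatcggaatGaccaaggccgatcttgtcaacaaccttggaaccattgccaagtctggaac
The coding summits at 2327 and 2909 bp had signals of 76.4 and 66.6 in the IDR set. They ranked 131 and 207 in replicate 2 but 5940 and 6149 in replicate 1, so only replicate 2 had them among its 2082 strongest peaks.

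The summits near the outermost start of hsp-90 are shared with C47E8.4, a gene on the other strand that overlaps its first part and starts 567 bp inside it. The summit at 194 bp was in an intron of hsp-90 and a coding exon of C47E8.4, with a signal of 64.6. It ranked 191 in replicate 2 and 24108 in replicate 1, the widest gap among the matched summits. The summit at 859 bp was intronic, 292 bp from the start of C47E8.4, with a signal of 50.9 and ranks of 1406 and 695 in replicates 1 and 2. The summit past the end, with a signal of 76.5, was in a coding exon of the small gene C47E8.11 and ranked 1484 and 393. The polymerase at these places cannot be assigned to hsp-90 alone.

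hsp-1 encodes the constitutive cytosolic HSP70 (HSC70) and lies at IV:17278959-17281330 on the plus strand, 2372 bp long. It held the strongest summit of the 7 genes, 37 bp past its annotated end, with a signal of 224 and rank 41 of the 2082 IDR peaks. The same place ranked 257 in replicate 1 and 14 in replicate 2, with signals of 69.8 and 160.5, which are not on a common scale. It was the highest ranked place of the gene in both replicates. The summit falls in the 124 bp between the end of hsp-1 and the end of nra-1, a gene that converges on it, and lies 88 bp from the end of nra-1. The whole gap, IV:17281331-17281454 on the plus strand, is shown with the summit at base 37 in the middle of the capitals.
hsp-1 to nra-1: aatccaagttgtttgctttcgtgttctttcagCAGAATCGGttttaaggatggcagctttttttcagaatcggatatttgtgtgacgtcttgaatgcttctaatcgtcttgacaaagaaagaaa

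Inside hsp-1, a summit in a coding exon 282 bp from the start had a signal of 92.4 and ranked 984 and 183 in replicates 1 and 2. Another in a coding exon at 1791 bp had a signal of 80.7 and ranked 6644 and 142. Between them lies an intron holding the small nucleolar RNA gene F26D10.24, at 1087 to 1210 bp. No IDR summit fell there, though replicate 1 had a peak at 1084 bp with rank 4943. Replicate 2 alone had a peak among its strongest upstream of the start, at -149 bp and rank 1887, which is 5 bp upstream of the first base of the heat shock element run.

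hsp-110 encodes the HSP110 relative of HSP70 that speeds nucleotide exchange on HSP70 proteins, and lies at III:8443910-8446909 on the minus strand, 3000 bp long. Its start summit lay 198 bp upstream, at base 53 of the window printed above and between the 2 heat shock element runs, with a signal of 79.7 and IDR rank 536. It ranked 1636 in replicate 1 and 332 in replicate 2. The proteasome gene rpn-3 starts 444 bp away in the opposite direction, its start 246 bp from the summit. The noncoding RNA gene C30C11.14 lies between them, and the summit was 12 bp from its start, nearer than to either coding gene. The polymerase there cannot be assigned to 1 of these 3 genes. The end summit, 8 bp inside the 3′ end, had a signal of 71.3. Within 100 bp of it replicate 1 had only a peak of rank 28289 and replicate 2 had none. Replicate 2 placed 2 strong peaks on either side instead, at 176 bp before the end (rank 261) and 107 bp past it (rank 236). In the body, replicate 2 had 3 peaks among its strongest (ranks 1097, 1170 and 1502), and replicate 1 had none ranked better than 25064.

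hsp-3 and hsp-4 encode the ER HSP70 proteins, relatives of mammalian BiP, and hsp-4 is a standard reporter of ER stress in worms. hsp-3 lies at X:6089028-6092124 on the minus strand. Its best pooled peak, in the body, had a signal of 44.6 and rank 2347, just under the 46.9 of the weakest IDR peak. Its best rank was 942 in replicate 1, in a coding exon 2273 bp from the start, and 4499 in replicate 2, at 84 bp. Thus only replicate 1 had hsp-3 among its strongest peaks, and the replicates placed their best peak in different parts of the gene, the body and the start.

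hsp-4 lies at II:7350112-7352645 on the minus strand and had the weakest best peak of the 7 in the pooled list and in replicate 1, while hsp-3 had it in replicate 2. Its best pooled peak ranked 11196, with a signal of 19.3. Its best rank was 22217 in replicate 1 and 2062 in replicate 2, the latter 91 bp from the start with a signal of 23.3, beside 23.2 at the last of the 2082 strongest. The coding sequences of hsp-3 and hsp-4 were identical at 77.7% of aligned bases, and no stretch of 36 bp was shared between them. All 36-bp words of both genes occurred once in the genome, so reads of that length or longer could be placed in either one. The length of the reads is not stated in the labels.

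hsp-6 encodes the mitochondrial HSP70 and hsp-60 the mitochondrial chaperonin, and both are reporters of the mitochondrial unfolded protein response. hsp-6 lies at V:4824124-4826760 on the minus strand, 2637 bp long. Its summit of highest signal in the IDR set, 64.3, lay in the 3′ untranslated region 217 bp before the end. It ranked 91 in replicate 2, while replicate 1 had no peak within 200 bp of it. The body summit, in a coding exon at 956 bp, had a signal of 48.3 and ranked 2952 and 9635, outside both replicates' strongest peaks. The start summit lay 360 bp upstream, with a signal of 53.2 and ranks of 1841 and 2946. It fell in exons of the noncoding RNA genes C37H5.15 and C37H5.16 and 240 bp from the start of C37H5.5, a divergent gene. The 101 bp around it are V:4827070-4827170, minus strand, with the summit base in capitals.
hsp-6 upstream summit: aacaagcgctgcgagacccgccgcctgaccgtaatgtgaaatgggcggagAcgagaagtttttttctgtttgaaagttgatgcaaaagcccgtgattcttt

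hsp-60, at III:1619742-1625803 on the plus strand, is the longest of the 7 at 6062 bp. Its only IDR summit lay 66 bp past the end, outside any annotated gene, with a signal of 61.6. It ranked 313 in replicate 2, and the nearest peak of replicate 1, 155 bp away, ranked 4737. No IDR summit lay within 500 bp of its start, which faces the start of Y22D7AL.10, 813 bp away, a gene that RefSeq names as a mitochondrial heat shock protein of the co-chaperonin kind. Widening the flanks to 1000 bp raised its count from 1 to 2, and the added summit was upstream of the start. Counting whole peaks in place of summits gave 2 as well, again with the added one at the start. The added summit lay more than 500 bp from the start of hsp-60 and nearer to that of Y22D7AL.10. It cannot be given to hsp-60 alone. The full lists held 11 peaks in the gene and its flanks in replicate 1, none among its 2082 strongest, and 13 in replicate 2, of which 2 were among its strongest. The 101 bp around the end summit are III:1625819-1625919, plus strand.
hsp-60 end summit: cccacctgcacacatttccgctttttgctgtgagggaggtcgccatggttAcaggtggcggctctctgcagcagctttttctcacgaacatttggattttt

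The replicates differed in how high they placed these genes. All 7 had at least 1 peak in each full list, as did 42.8% of all protein-coding genes in replicate 1 and 43.6% in replicate 2. A low-ranked peak of a full list is not by itself shown to be a polymerase site. The best rank in the gene or 500 bp either side was better in replicate 2 for 6 of the 7, all except hsp-3. Its median over the 7 was 1636 in replicate 1 and 236 in replicate 2, beside 6479 and 5502 over all genes with a peak. hsp-6 went from 1841 to 91, hsp-1 from 257 to 14 and hsp-60 from 2704 to 313.

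**Figure D2:**
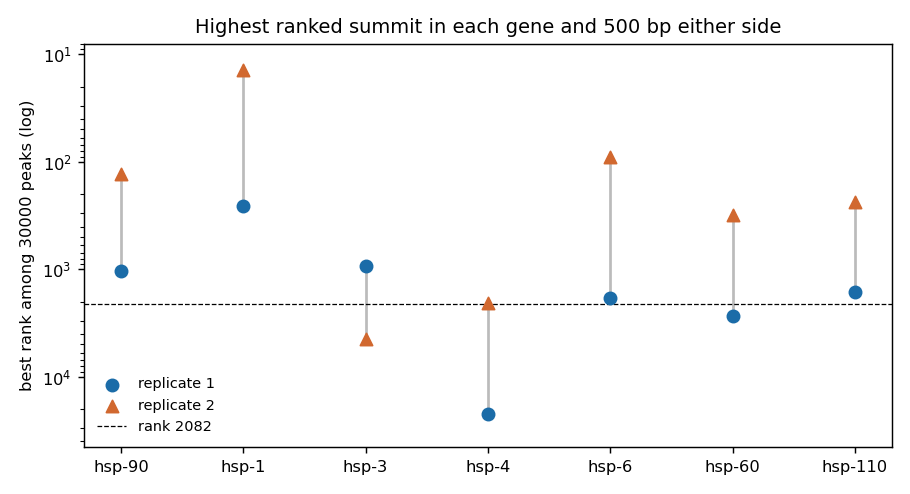
Best rank of each gene in each replicate. The y axis is the rank of the strongest peak in the gene or 500 bp either side, on a log scale with the strongest at the top, and the dashed line is rank 2082. Replicate 2 is higher for every gene but hsp-3, and hsp-1 reaches rank 14.

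Among each replicate's 2082 strongest peaks, the number of these genes reached was close and the number of summits was not. Replicate 1 had 8 summits at 5 of the 7 genes (9.28% of all genes) and replicate 2 had 24 at 6 of the 7 (10.8%). In replicate 1, 3 genes had a start summit (4.55% of all genes) and 2 an end summit (5.69%). In replicate 2, 4 had a start summit (5.90%) and 5 an end summit (6.10%). hsp-90 had 3 summits in replicate 1 and 9 in replicate 2, and hsp-110 had 1 and 6. In hsp-90 the replicate 2 summits at 3365 and 3747 bp share the same peak interval of 608 bp. Another replicate 2 peak there was only 82 bp wide, while those of replicate 1 were 350 bp. Any part of peak splitting in the difference was not tested. hsp-60 had none in replicate 1, hsp-3 none in replicate 2, and hsp-4 was absent from replicate 1 and from the IDR set.

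**Figure D3:**
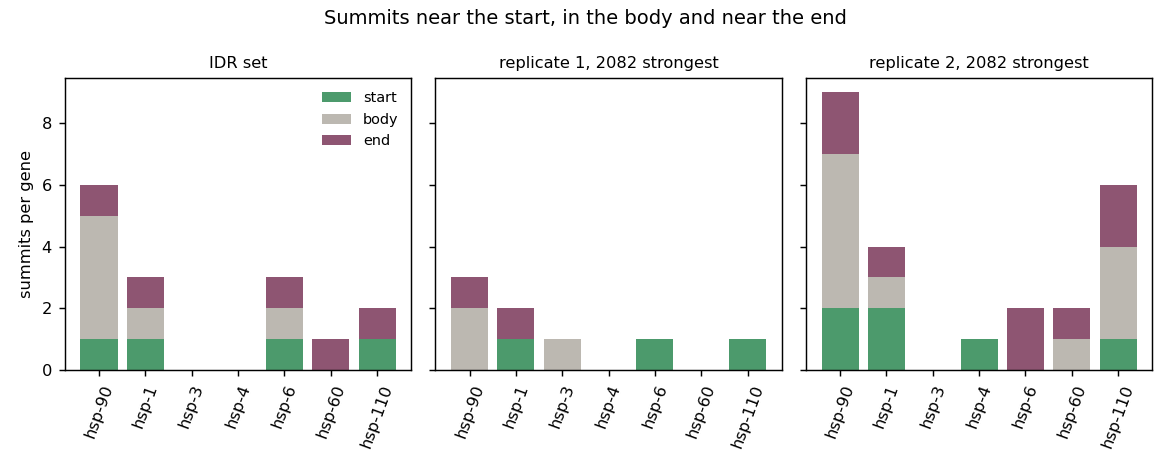
Number of summits per gene (y axis) near the start, in the body and near the end, in the IDR set and among each replicate's 2082 strongest peaks. hsp-90 has 6, 3 and 9 summits in the 3 panels, and hsp-110 has 2, 1 and 6.

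Of the 15 IDR summits, 7 had a match within 100 bp among the 2082 strongest peaks of replicate 1 (67.2% of all IDR summits) and 12 had one in replicate 2 (60.0%). Both replicates had 6 of the 15 (35.0% of all). Those 6 were 859, 1550 and 3754 bp from the start in hsp-90, the first and last summits of hsp-1, and the start summit of hsp-110. In the full lists 12 of the 15 were matched in both (80.0%), beside 81.7% of all 2082 IDR summits. Of those 12, 10 ranked higher in replicate 2, against 48.5% of the 1702 IDR summits matched in both. The exceptions were the body and start summits of hsp-6. With 2 samples of 1 group there is no test of this difference.

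**Figure D4:**
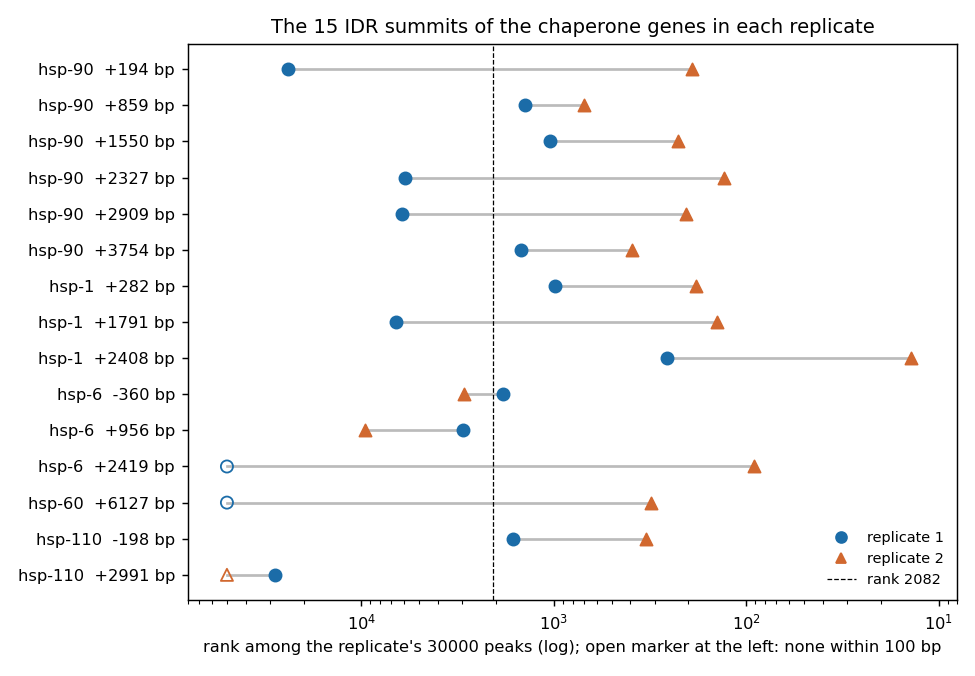
The 15 IDR summits of the chaperone genes in each replicate. The x axis is the rank of the best peak within 100 bp on a log scale with the strongest at the right, the labels give the distance from the gene's start, and open markers at the left stand for no peak within 100 bp. In 10 of the 12 summits matched in both lists the triangle of replicate 2 is to the right of the circle of replicate 1.

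The partners of these chaperones were counted in 5 lists by the same rule. Of 13 cytosolic co-chaperones, which tune the HSP90 and HSP70 cycles, 10 had an IDR summit in the gene or 500 bp either side, 5 at the start and 8 at the end, beside 10.3%, 5.57% and 6.0% of all genes. The highest signals were at fkb-6 (86.0), bag-1 (82.7), dnj-13 (81.3), ahsa-1 (75.2) and sti-1 (74.5). The strongest summit of fkb-6, dnj-13, ahsa-1 and sti-1 lay past the gene's end. That of fkb-6 was in a coding exon of clec-264, that of ahsa-1 in one of C01G10.9, and that of sti-1 was 16 bp from the start of srbc-58. That of dnj-13 was in an intron of dhgd-1 and 91 bp from the start of F54D5.7. The bag-1 summit was 142 bp from the end of mei-2. So these summits cannot be given to the co-chaperone alone. Among the strongest peaks, replicate 1 reached 4 of the 13 (9.28% of all genes) and replicate 2 reached 11 (10.8%), with median best ranks of 2664 and 344.

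In the ER list of folding enzymes and stress sensors, 6 of 15 genes had an IDR summit, beside 10.3% of all genes. The strongest was at xbp-1, the transcription factor of the ER stress response, with a signal of 153 at 96 bp past the end. The best ranks in that gene or 500 bp either side were 158 in replicate 1 and 136 in replicate 2. pdi-3, a protein disulfide isomerase, had a signal of 151 at 48 bp past the end, and best ranks of 126 and 194 by the same window. These best ranks need not belong to the summit named. pdi-2 (81.6), dnj-20 (61.7, with 5 IDR summits) and crt-1, the gene for calreticulin (59.7), followed. Among the strongest peaks this list had 6 of 15 in replicate 1 and 5 of 15 in replicate 2, beside 9.28% and 10.8% of all genes.

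In the mitochondrial list 6 of 12 genes had an IDR summit (10.3% of all genes), all 6 at the start (5.57%) and 2 also at the end (6.0%). atfs-1, the transcription factor of the mitochondrial unfolded protein response, had a signal of 105 at 119 bp past its end. Its best ranks in the gene or 500 bp either side, which need not belong to that summit, were 240 and 369 in replicates 1 and 2. clpp-1, a mitochondrial protease subunit, had a signal of 91.9 at 18 bp upstream of its start. The other named members were phb-1 (71.7, in a coding exon of its neighbour eif-2alpha), ymel-1 (69.2) and phb-2 (68.1). The ymel-1 summit was at -152 bp from its start and 100 bp from the end of M03C11.3, and the phb-2 summit was at -471 bp and 96 bp from the end of T24H7.2. The summits of clpp-1, phb-1, ymel-1 and phb-2 cannot be given to these genes alone. Among the strongest peaks, replicate 1 reached 5 of the 12 (9.28% of all genes) and replicate 2 reached 4 (10.8%).

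None of the 4 genes for heat shock factor and its regulators had an IDR summit, beside 10.3% of all genes. A list of 4 is too short to read an absence from. Among replicate 2's strongest peaks 1 of the 4 had a summit (10.8% of all genes), hsb-1 at rank 1434. Of 10 heat-inducible chaperone genes, 2 had an IDR summit, beside 10.3% of all genes. These were F44E5.4 (signal 117) and F44E5.5 (62.3), both past the end. The summit of F44E5.4 fell in an exon of F44E5.16, 14 bp from the end of that gene, and cannot be given to F44E5.4 alone. Only 1.84% and 2.08% of the 36-bp words of F44E5.4 and F44E5.5 occurred once in the genome, so values within these near-identical genes are uncertain. Words past their ends were not counted. hsp-70 had no IDR summit, with best ranks of 4580 and 2495. Among the strongest peaks, replicate 1 reached 3 of the 10 heat-inducible genes (9.28% of all genes) and replicate 2 reached 2 (10.8%).

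**Figure D5:**
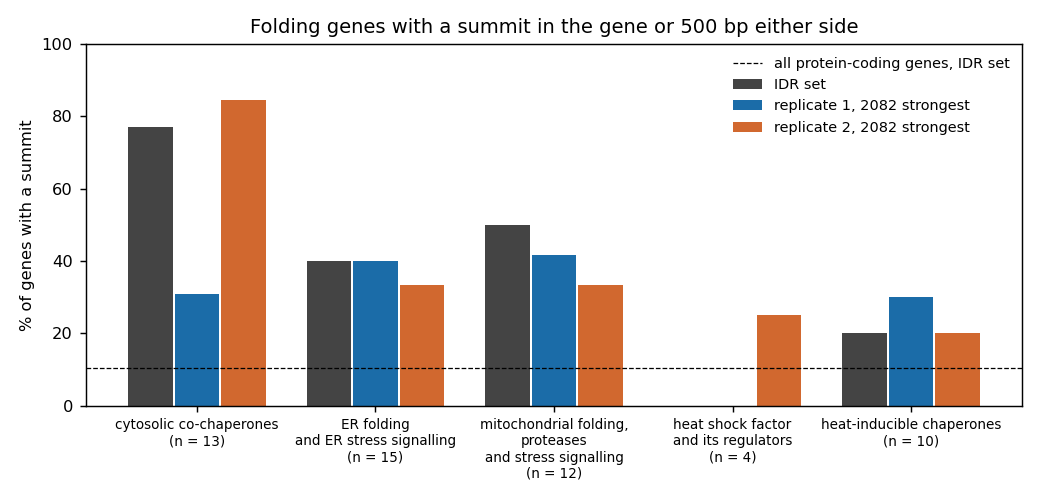
Percentage of genes in each folding list with a summit in the gene or 500 bp either side (y axis), in the IDR set and among each replicate's 2082 strongest peaks, with the 10.3% of all protein-coding genes dashed. Cytosolic co-chaperones stand at 10 of 13 in the IDR set, and at 4 and 11 in replicates 1 and 2.

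Genes with the most similar counts of start, body and end summits in both replicates were sought among genes of a length within 1.5 times, by Euclidean distance over the 6 counts. mak-1 was nearest to hsp-90 at a distance of 2.45, followed by brp-1 at 3.00 and W09D10.4 at 3.16, so no gene shared its counts. For hsp-1, gdh-1, atp-2 and gln-3 stood at 1.00, and 4 genes did in all. For hsp-6, mel-32 had identical counts and grsp-1 and pho-11 stood at 1.00, with 8 genes at that distance. For hsp-110, acs-19 was nearest at 1.41, then apl-1 at 1.73 and pitr-1 at 2.00.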

How the data were processed

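Lists of AMA-1 ChIP-seq peaks were used for 2 biological replicates, both listed in the labels as whole L4 larvae of strain N2. Per the labels, the replicates are separate biological samples, and 2 sequencing instrument models are named for replicate 2 only. Each replicate's list, a list from pooled alignments and the IDR set were deposited for ce11. Not given in the sources used here were the aligner, the caller and the threshold of the IDR. The control was not analysed here. The authors' caller gave each peak a score, its signal, which served here only for ranks and descriptions inside 1 list. A deposited −log10 q-value stood at its maximum for every IDR peak and could not rank them. The IDR set held exactly the 2082 strongest pooled peaks. Peaks were called per sample and also on pooled samples, so the IDR set comes without an error between replicates. The read depth of each sample is unknown here, and no limit of detection is given. Median peak widths were 344 bp in the IDR set, 350 bp in replicate 1 and 330 bp in replicate 2, which limits how finely a summit can be placed.

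Gene models came from Ensembl release 115 for WBcel235, and every peak ended within its chromosome. All coordinates are 1-based. Summits were matched between lists within 100 bp, and each replicate was also limited to its 2082 strongest peaks. Counting was checked on simulated summits, and run with Python 3.11.15, NumPy 2.4.6 and Biopython 1.88. The 7 genes, the 5 lists and the alternatives were chosen with earlier results of these data known. Named genes are the 7, up to 5 genes of each list by signal among those with an IDR summit, the 3 most similar genes to each member with at least 2 IDR summits, and neighbours within 500 bp of a summit; hsb-1, hsp-70, F26D10.24 and Y22D7AL.10 were named after their values were seen. Of 10 heat-inducible genes found, hsp-16.1 and hsp-16.48 each name 2, and the names hsp-16.11 and hsp-16.49 found no match of their own. The sequence upstream of hsp-3 is not reported here.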

Additional observations from a re-analysis of the deposited data

How the results depend on the processing

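The number of chaperone genes with an IDR summit was 4 to 6 under every alternative listed in this paragraph for it, against 5. The 15 summits became 24 with replicate 2's strongest peaks alone and 8 with replicate 1's, and 11 to 21 under the other alternatives. Genes with an end summit numbered 2 to 5 when 1 replicate was left out, and those with a start summit 3 to 4. Start summits were counted at 5 genes with 1000 bp flanks, with whole peaks and with the strongest 4164 pooled peaks, hsp-60 being the gene added. With 1000 bp flanks and with whole peaks, the summit added there was nearer to the start of Y22D7AL.10. Within 250 bp in place of 500 bp, 2 genes had a start summit in place of 4, since the start summits of hsp-6 and of hsp-1 lie farther out. With that flank the median best rank in replicate 1 was at 9.01% of the list, against 5.45%. Summits matched in both replicates numbered 12 of 15 in the full lists (81.7% of all IDR summits), against 6 (35.0% of all). Within 50 bp they numbered 3 and within 200 bp 6, and the share over all IDR summits was not computed there. Of 49 counts for single genes, 35 were equal or stayed within 1.5 times, among them counts of hsp-3 and hsp-4 that stayed at 0. Of 28 best ranks for single genes, 26 moved by less than the spread between the replicates. The others were both in replicate 1: hsp-4 went from 74.1% to 8.61% of the list with 1000 bp flanks, and hsp-110 from 5.45% to 16.7% with 250 bp. Ranking by the p-value column was not run, because it holds 1 value throughout. No paired analysis was possible because there is 1 group. Read depth is unknown, so a gene with no peak is not shown to lack the polymerase. The alternatives were the strongest 1041 IDR peaks, the strongest 4164 pooled peaks, flanks of 250 and 1000 bp, whole peaks in place of summits, every transcript end, and each replicate alone.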

Other observations

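Bases G and C made up a median of 43.6% of the 101 bp around the 2082 IDR summits, and 33.2% of the 250 bp upstream of protein-coding genes. The 250 bp upstream of hsp-4 stood at 38.8%, the highest of the 6 genes examined, and those of hsp-1 at 28.8%, the lowest. Around the IDR summits of the chaperone genes the value ran from 23.8% at the end of hsp-110 to 53.5% in the body of hsp-6. Any part of base composition in the peak ranks was not tested.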
